A study of Mus musculus with 13 samples.

Results

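Expression of 34 genes of the ATF4 programme was measured in mouse Th17 cells by RNA sequencing. ATF4 is the transcription factor that cells make in excess when amino acids run short, and the 34 genes carry out amino acid uptake, serine and folate metabolism, synthesis of other amino acids and polyamines, and the stress response around ATF4. Members were chosen by symbol from a list drawn up by known function, with earlier results of these data known. Each symbol was matched to 1 row of the count table. They are 34 of 56941 rows, and all 34 passed the filter on low counts that left 14681 genes for testing. The list holds 9 transporters, 8 serine and one-carbon enzymes, 8 other enzymes and 9 stress regulators. It holds no tRNA synthetase, and these were read as lists of their own.

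Th17 cells are CD4 helper T cells known for the cytokines IL-17A and IL-17F. The cells came from naive CD4 T cells of the spleen that were activated and kept for 72 hours in culture conditions that drive the Th17 fate. The study set cells with a conditional deletion of Chaf1b, a subunit of the histone chaperone CAF-1, against wild-type cells to learn what Chaf1b does in Th17 cells. The libraries labelled KO came from mice with the genotype Chaf1bfl/fl;Il17fCre+, and those labelled WT from mice given as Chaf1bWT. Cre was driven by Il17f, so deletion is limited to cells that have switched that gene on, at the time they do so. The sources do not say whether WT mice carried Cre, and no library with Cre alone was analysed here. The sources used here give no strain, age or sex. Each group had 3 libraries, called biological replicates in the labels. These do not say that the libraries came from separate animals. Each p-value sets a difference against the spread among these libraries, estimated in part across genes, and cannot be read as covering the spread among animals.

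When uncharged tRNA, unfolded protein or other stress activates a kinase of the translation factor eIF2, most protein synthesis slows while the Atf4 message is translated better. ATF4 then raises genes for amino acid import, serine and asparagine synthesis, mitochondrial folate metabolism and tRNA charging. Much of this control acts on translation of Atf4, which RNA counts do not show. Activated T cells depend on the same supply, since they import large amounts of neutral amino acids and glutamine and use serine as a source of one-carbon units for purines and thymidylate.

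ATF4 binds, as a dimer with a C/EBP factor, an element whose core is written here as TGATGNAA, or TTNCATCA on the other strand. RefSeq promoter windows (GRCm38.p6, from 250 bases before to 50 bases after a gene start) were searched for it on both strands. The table holds windows for 30 of the 34 genes and none for Slc38a1, Slc1a5, Cth and Slc7a5. Of the 30 genes, 7 hold the core (23.3%), against 1219 of 27025 genes in the table (4.51%). Counted by window, 7 of 35 hold it (20%), against 1304 of 32851 (3.97%). The 7 are Asns, Slc7a11, Chac1, Pycr1, Got1, Slc1a4 and Trib3, with none among the 8 serine and one-carbon enzymes. A match describes the letters only, the list was drawn from known ATF4 targets, and binding was not measured. Of the 7, the 5 whose match with its flanks lies before the start are shown, so that the shared core can be seen beside the values of the genes. Capitals mark the core with 15 bases on each side, on the strand of the gene. Asns lies at chr6:7693210-7693247 (minus strand), Slc7a11 at chr3:50443638-50443694 (minus), Chac1 at chr2:119351034-119351071 (plus), Pycr1 at chr11:120643829-120643866 (minus) and Got1 at chr19:43524685-43524722 (minus).
Asns: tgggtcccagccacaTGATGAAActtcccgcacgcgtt
Slc7a11: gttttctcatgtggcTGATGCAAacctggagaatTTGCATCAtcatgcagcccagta
Chac1: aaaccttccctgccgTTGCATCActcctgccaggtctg
Pycr1: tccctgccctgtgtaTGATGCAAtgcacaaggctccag
Got1: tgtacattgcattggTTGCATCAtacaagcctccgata
Slc7a11 holds the core on both strands, with 11 bases between the copies. The log2 fold changes of these genes, libraries labelled KO over WT, were 0.10 for Asns, 0.56 for Slc7a11, 0.00 for Chac1, -0.17 for Pycr1 and 0.03 for Got1, and none passed the test described next.

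Total counts were 35708879 to 38395131 in the libraries labelled KO and 38099488 to 45232055 in those labelled WT. Values are in CPM, counts scaled to a common total, with library sizes set by TMM factors, which ran from 0.984 to 1.016. Levels are set side by side only between libraries for the same gene, since the counts are not divided by gene length. WT replicate 1 stood apart: chi-square per degree of freedom was 4.19 to 4.53 among the KO pairs, against 18.8 and 33.1 between it and the other WT libraries and 7.54 between those 2. Pairs of a KO and a WT library gave 18.0 to 31.5, so WT replicates 1 and 3 differed more than any such pair. Chaf1b itself was at 16.3, 14.9 and 13.5 CPM in the libraries labelled KO and 13.2, 11.4 and 11.5 CPM in those labelled WT (log2 fold change 0.31 ± 0.11 SE, adjusted p = 0.130), so it was not lower where it should have been deleted. It was called higher in 2 of 14 other fits, among them the fit without WT replicate 1 (0.38, adjusted p = 0.0138). Exons are summed per gene and the deleted part is not given, so this count cannot check the genotype, and every direction below rests on the labels. Defining Th17 genes were present in all 6 libraries, with Il17a at 8.60, 8.44 and 9.89 CPM in the libraries labelled KO and 104, 52.4 and 43.1 CPM in those labelled WT. The 9 Th17 and CD4 markers summed to 434 to 450.0 CPM in the libraries labelled KO and 581 to 768 CPM in those labelled WT (5 of 9 called lower). The 5 gamma delta T cell markers summed to 95.8 to 101 and 50.7 to 62.6 CPM, in the same order (4 of 5 called higher). CD8 T cell markers overlapped (12.4 to 16.6 and 14.1 to 15.98 CPM), as no other list did: NK cell markers summed to 0.136 to 0.285 in the libraries labelled KO and 0.308 to 1.19 CPM in those labelled WT, B cell markers to 14.1 to 15.97 and 16.3 to 22.1 CPM, myeloid and dendritic markers to 6.38 to 8.13 and 2.54 to 2.89 CPM, and erythroid markers to 1.49 to 4.94 and 0.390 to 0.835 CPM. Of these lists, 0 of 1 tested NK gene was called, 2 of 3 B cell genes (1 in each direction), 1 of 4 myeloid and dendritic genes (higher) and 1 of 1 erythroid gene (higher). Over all tested genes, 3.92% were called higher and 2.47% lower. Of defining genes, Ncr1, Klrb1c, Klra8, Siglech and Hba-a2 had 0 counts in every library, while Ms4a1 reached at most 4, Csf1r 3 and Xcr1 1. Other genes of the same lists were counted. The called ones were Cd79b, Fcer1g and Hbb-bt (higher), with at most 189, 201 and 172 counts in a library, and Ebf1 (lower), with at most 719. In bulk RNA, fewer cells of a type and less RNA per cell cannot be told apart, and the part these differences play in the values below was not tested.

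The 34 genes differed little between the libraries labelled KO and WT, and in most of them the data bound that difference tightly. The bound is on bulk RNA, and the share of cells with the deletion was not measured here. Of the 34 genes, Cth alone passed the test (2.94%), and it was higher in the libraries labelled KO; none was called lower. Across all tested genes 6.39% were called, 3.92% higher and 2.47% lower, so the share of the 34 genes called is no larger than the background. The test is edgeR's quasi-likelihood F-test at an adjusted p of 0.05, with Benjamini-Hochberg adjustment over all 14681 genes, and it gives every adjusted p below. At an unadjusted p of 0.05, 10 of the 34 genes passed (Slc7a11, Slc7a6, Slc1a4, Slc1a5, Phgdh, Asns, Cth, Pycr1, Ddit3 and Ddit4), against 3104 of 14681.

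Fitted log2 fold changes ran from -0.19 to 0.56, with a median of 0.03 against -0.01 over all tested genes. The median size was 0.08 regardless of sign, against 0.13 over all tested genes and 0.08 over the 7163 genes of at least 20 CPM. All 34 genes lie above that floor, and most of them far above it. For 30 of 34 genes (88.2%) the 95% interval lay wholly within a 1.25-fold difference in either direction, against 75.8% of genes of at least 20 CPM. Intervals were narrower at higher levels, with a median half-width of 0.24 over all tested genes and 0.15 at 20 CPM or more. These shares are not matched for level, and the part of level in them was not tested. Of the 34 genes, 4 had wider intervals. These were Slc7a11, Cth, Odc1 and Ddit4. Within 1.5-fold lay 33 of 34 (97.1%), the exception being Slc7a11. Every library labelled KO lay above every library labelled WT for 10 genes and below for 4, so the groups were apart for 14 of 34 (41.2%). Groups were apart for 26.8% of all tested genes, and for 30.5% of those of at least 20 CPM. By direction, the KO libraries lay above for 14.4% of all tested genes and below for 12.4%. Of the 7163 genes of at least 20 CPM, they lay above for 1252 and below for 930.

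Summed over all 34 genes, the libraries labelled KO held 15978, 15513 and 15706.5 CPM and those labelled WT 15249.7, 15498 and 15269 CPM. The groups did not overlap, but the nearest libraries, KO replicate 2 and WT replicate 2, were almost level. Between 1.54% and 1.57% of the counts of any library fell on the 34 genes, and no gene had fewer than 908 counts in a library.

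**Figure D1:**
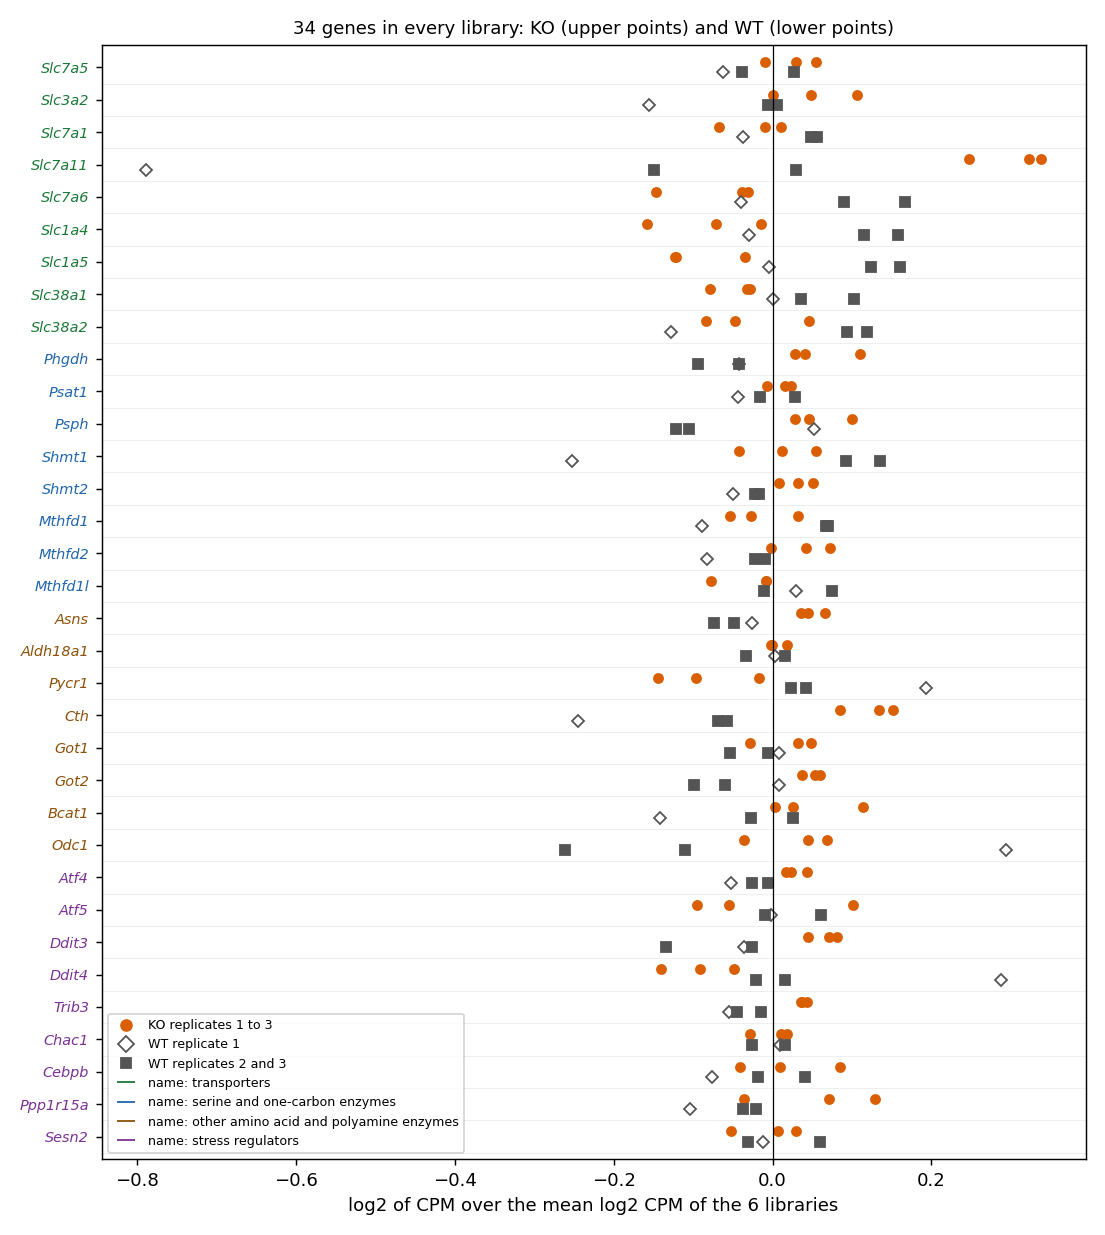
Level of each of the 34 genes in each library, as log2 CPM relative to the mean log2 CPM of the gene over 6 libraries (horizontal axis), with KO libraries in the upper and WT libraries in the lower points of each row. Most genes lie close to 0 in all 6 libraries; Slc7a11 is spread most widely, and WT replicate 1 is the lowest WT library in all 9 transporters.

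**Figure D2:**
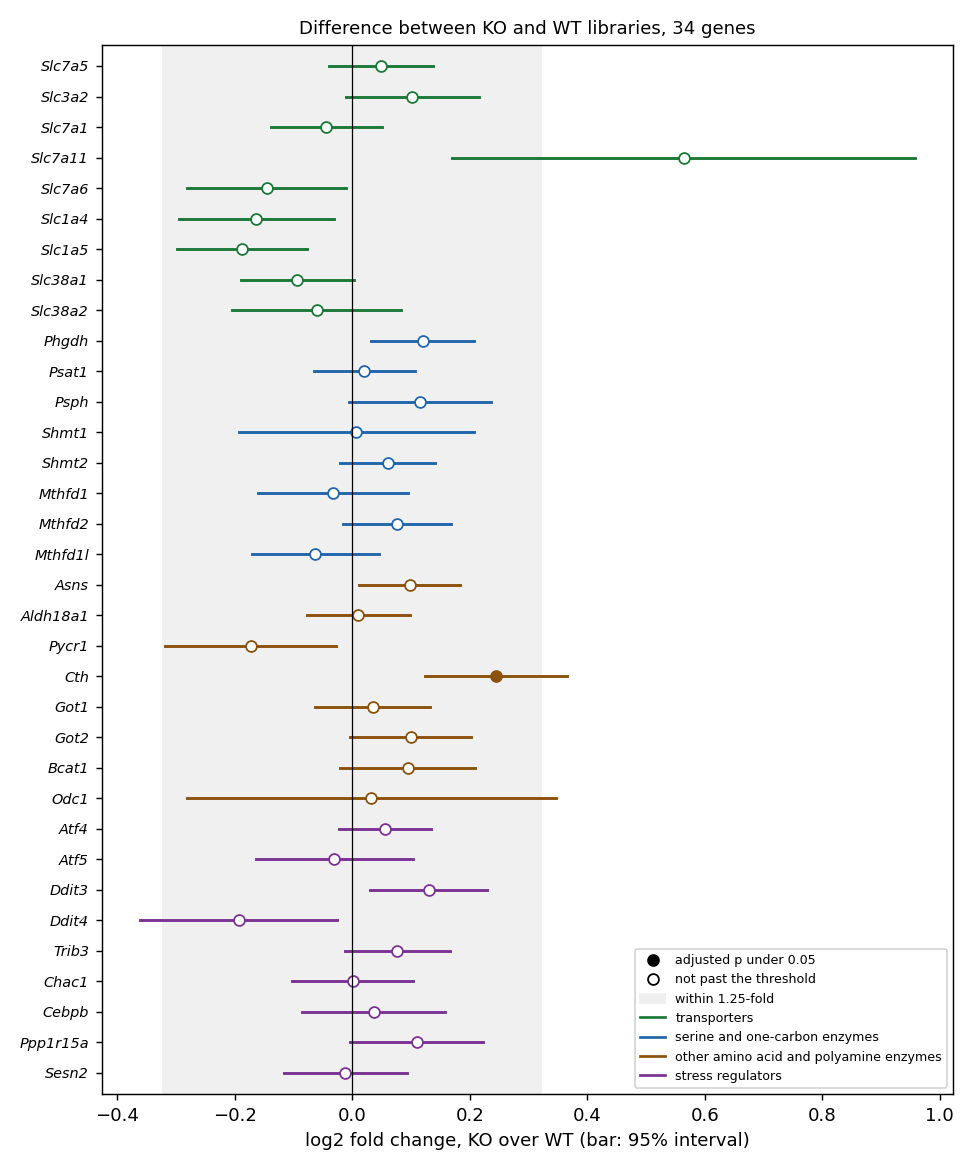
Log2 fold change of each gene, KO over WT (point), with its 95% interval (bar), from edgeR's quasi-likelihood fit. The values run from -0.19 (Ddit4) to 0.56 (Slc7a11), and Cth, at 0.25, alone passed an adjusted p of 0.05.

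No transporter passed the test, and the 9 split into 3 fitted as higher and 6 fitted as lower, with a median log2 fold change of -0.06. Slc7a11 (ENSMUSG00000027737.11), which exchanges cystine for glutamate and so supplies cysteine for glutathione, gave the largest difference of all 34 genes. It was at 47.8, 45.4 and 48.3 CPM in the libraries labelled KO and 22.1, 34.5 and 39.0 CPM in those labelled WT. The groups did not overlap, the KO libraries lay close together, and the WT libraries spread widely, with WT replicate 1 far below the others. Means were 47.2 ± 1.57 CPM in the libraries labelled KO and 31.9 ± 8.75 CPM in those labelled WT (SD, n = 3 each), which is 1.48-fold (log2 0.56 ± 0.17 SE, 95% interval 0.17 to 0.96). The adjusted p was 0.0984, so the difference was not called. Without WT replicate 1 the fitted value was 0.36 and passed (adjusted p = 0.000228), and without WT replicate 3 it was 0.74 and passed (adjusted p = 0.0265).

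Slc1a5, Slc1a4 and Slc7a6 were fitted as lower, and none of them passed. Slc1a5, the main sodium-coupled carrier of glutamine in activated T cells, was at 652, 653 and 693 CPM in the libraries labelled KO and 708, 794 and 774 CPM in those labelled WT. All KO libraries lay below all WT libraries, and the log2 fold change was -0.19 ± 0.05 (95% interval -0.30 to -0.08, adjusted p = 0.0510), just outside the threshold. It came within the threshold in 6 of 14 other fits, among them DESeq2 (adjusted p = 0.0352) and the fit without WT replicate 1 (-0.23, adjusted p = 1.7e-05). Its paralogue Slc1a4, a carrier of alanine, serine and cysteine, was at 184, 173 and 191 CPM in the libraries labelled KO and 189, 209 and 215 CPM in those labelled WT. Here KO replicate 3 lay above WT replicate 1, so the groups overlapped (-0.16 ± 0.06, adjusted p = 0.142). Slc7a6, a light chain that exchanges cationic for neutral amino acids, was at 128, 119 and 129 CPM in the libraries labelled KO and 128, 139.9 and 147 CPM in those labelled WT, again with overlap (-0.15 ± 0.06, adjusted p = 0.198).

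The system A carriers gave smaller values. Slc38a1 was at 442, 428 and 443 CPM in the libraries labelled KO and 452, 463 and 485 CPM in those labelled WT, apart but by little (-0.09 ± 0.04, adjusted p = 0.252). Slc38a2, a carrier that amino acid shortage induces, was at 392, 383 and 418 CPM in the libraries labelled KO and 371, 433 and 440.4 CPM in those labelled WT. WT replicate 1 was the lowest and WT replicate 3 the highest of all 6 libraries for this gene (-0.06 ± 0.07, adjusted p = 0.661).

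Slc7a5 and Slc3a2, whose products form the LAT1 carrier of leucine and other large neutral amino acids, did not pass the test. Slc7a5 was at 1132, 1083 and 1113 CPM in the libraries labelled KO and 1044, 1111 and 1061 CPM in those labelled WT, with a 95% interval of the log2 fold change from -0.04 to 0.14. Slc3a2, the heavy chain that the Slc7a11 and Slc7a6 products also need, was at 763, 708 and 733 CPM in the libraries labelled KO and 636, 705 and 711 CPM in those labelled WT (0.10 ± 0.05, adjusted p = 0.286). KO and WT libraries overlapped for both genes. Slc7a1, the main carrier of arginine, was at 804, 773 and 816 CPM in the libraries labelled KO and 789, 841 and 837 CPM in those labelled WT (-0.04 ± 0.04, adjusted p = 0.617).

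All 9 transporters shared a feature within the WT group: WT replicate 1 was the lowest WT library for each. Summed over the 9 genes, the libraries labelled KO held 4545, 4364 and 4584 CPM and those labelled WT 4338, 4730.4 and 4711 CPM. The KO libraries fell between WT replicate 1 and the other WT libraries.

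None of the 8 serine and one-carbon enzymes passed the test, 6 were fitted as higher and 2 as lower, and all 8 intervals lay within 1.25-fold. Phgdh, the first and committed enzyme of serine synthesis from glycolysis, gave the largest value of the group. It was at 1198, 1141 and 1132 CPM in the libraries labelled KO and 1077, 1077 and 1039.7 CPM in those labelled WT. The groups were apart, by 1.09-fold (log2 0.12 ± 0.04, 95% interval 0.03 to 0.21, adjusted p = 0.104). The next enzyme, Psat1, was at 758, 754 and 743 CPM in the libraries labelled KO and 724, 762 and 738 CPM in those labelled WT (0.02 ± 0.04, adjusted p = 0.818). Psph, which completes the pathway, was at 271, 258 and 261 CPM in the libraries labelled KO and 262, 232 and 235 CPM in those labelled WT (0.11 ± 0.06, adjusted p = 0.259). Only WT replicate 1 reached the KO range for Psph, a gene whose span overlaps that of Cct6a, so some of its reads may belong to that neighbour.

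Shmt2, Mthfd2 and Mthfd1l belong to the mitochondrial branch of folate metabolism, which releases one-carbon units from serine as formate, and none of them passed. Shmt2, the mitochondrial serine hydroxymethyltransferase, was at 1073, 1042 and 1059 CPM in the libraries labelled KO and 1001, 1020.2 and 1024 CPM in those labelled WT. Mthfd2, the next mitochondrial enzyme and one that proliferating T cells raise strongly, was at 651, 638 and 619 CPM in the libraries labelled KO and 585, 615 and 610.1 CPM in those labelled WT. For both genes every KO library lay above every WT library, by 1.04-fold and 1.05-fold, and neither passed (adjusted p = 0.390 and 0.335). Mthfd1l, which releases formate in mitochondria, was at 140.2, 134 and 140.2 CPM in the libraries labelled KO and 144, 149 and 140.0 CPM in those labelled WT (-0.06 ± 0.05, adjusted p = 0.518).

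The cytosolic enzymes overlapped fully. Shmt1 was at 90.9, 84.9 and 88.2 CPM in the libraries labelled KO and 73.4, 93.3 and 96.0 CPM in those labelled WT. WT replicate 1 was the lowest and the other WT libraries the highest of the 6, so the mean of the WT group lay within the KO range (0.01 ± 0.09, adjusted p = 0.976). Mthfd1, the cytosolic enzyme that loads formate onto folate, was at 98.9, 103 and 97.1 CPM in the libraries labelled KO and 94.8, 106 and 106 CPM in those labelled WT (-0.03 ± 0.06, adjusted p = 0.801). Over the 8 enzymes the sum was 4282, 4155 and 4140 CPM in the libraries labelled KO and 3961, 4054 and 3989 CPM in those labelled WT, a ratio of 1.05 without overlap that Phgdh, Shmt2 and Mthfd2 lead.

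Of the 8 other enzymes, Cth was called higher and none lower, with a median log2 fold change of 0.06. Cth (ENSMUSG00000028179.13), cystathionine gamma-lyase, makes cysteine from methionine-derived cystathionine. It was at 422, 403 and 416 CPM in the libraries labelled KO and 320.1, 362 and 365 CPM in those labelled WT. Every KO library lay well above every WT library, and WT replicate 1 was again the lowest. Means were 414 ± 9.80 CPM in the libraries labelled KO and 349 ± 24.97 CPM in those labelled WT, which is 1.19-fold (log2 0.25 ± 0.06, 95% interval 0.12 to 0.37, adjusted p = 0.0243). The value stayed between 0.19 and 0.28 in 14 other fits, but the call was lost when any KO library was left out (adjusted p = 0.0991 to 0.161), without WT replicate 2 (0.0673) and with a replicate block (0.0508).

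Asns, asparagine synthetase, is the classic ATF4 target of amino acid shortage. It was at 619, 609.8 and 606 CPM in the libraries labelled KO and 581, 572 and 562 CPM in those labelled WT. Both groups were tight and apart, by 1.07-fold on means of 612 ± 6.54 CPM in the libraries labelled KO and 572 ± 9.49 CPM in those labelled WT, and the difference did not pass (log2 0.10 ± 0.04, 95% interval 0.01 to 0.18, adjusted p = 0.177). Got2, the mitochondrial aspartate aminotransferase, was at 233, 229 and 232 CPM in the libraries labelled KO and 225, 208 and 214 CPM in those labelled WT (0.10 ± 0.05, adjusted p = 0.250), also without overlap. Its cytosolic counterpart Got1 was at 312, 296 and 308 CPM in the libraries labelled KO and 303, 301 and 291 CPM in those labelled WT (0.03 ± 0.04, adjusted p = 0.721), with overlap.

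Neither enzyme of proline synthesis passed the test. Aldh18a1, the entry enzyme, was at 488, 488 and 495 CPM in the libraries labelled KO and 489, 494 and 477 CPM in those labelled WT (0.01 ± 0.04, adjusted p = 0.915). Pycr1, the last enzyme, was at 53.0, 57.9 and 54.8 CPM in the libraries labelled KO and 67.0, 59.6 and 60.3 CPM in those labelled WT. All KO libraries lay below all WT libraries, yet the value did not pass (-0.17 ± 0.07, adjusted p = 0.157). Bcat1, which removes the amino group of branched-chain amino acids, was at 542, 502 and 509.8 CPM in the libraries labelled KO and 454, 492 and 509.9 CPM in those labelled WT (0.09 ± 0.05, adjusted p = 0.338).

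Odc1, the rate-limiting enzyme of polyamine synthesis, was the least certain of the abundant genes. It was at 1136, 1155 and 1075 CPM in the libraries labelled KO and 1351, 1021 and 919.5 CPM in those labelled WT. The WT libraries spanned the KO range on both sides, with WT replicate 1 the highest. Means were 1122 ± 42.0 CPM in the libraries labelled KO and 1097 ± 226 CPM in those labelled WT (log2 0.03 ± 0.13, 95% interval -0.28 to 0.35, adjusted p = 0.922). Without WT replicate 1 the value was 0.21 and passed (adjusted p = 0.000408).

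**Figure D3:**
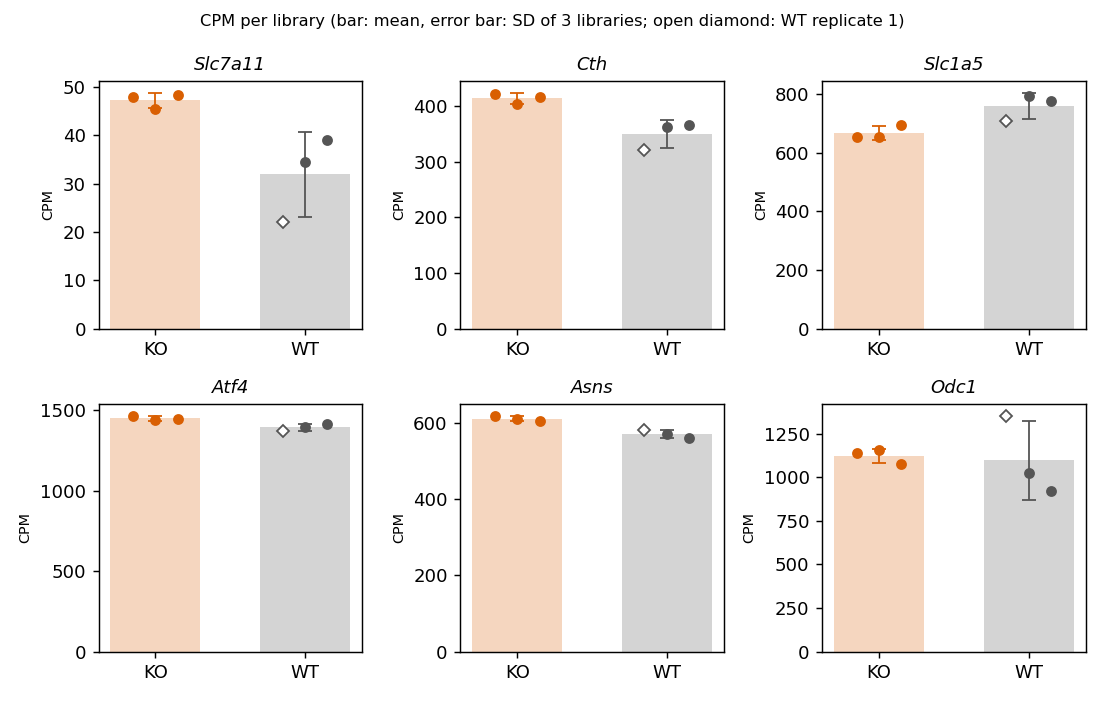
CPM of Slc7a11, Cth, Slc1a5, Atf4, Asns and Odc1 in each library (points), with the mean (bar) and SD (error bar) of 3 KO and 3 WT libraries, on axes that start at 0; the open diamond is WT replicate 1. KO libraries lie close together in every panel, while WT replicate 1 is the lowest WT library for Slc7a11 (22.1 CPM), Cth (320.1), Slc1a5 (708) and Atf4 (1372) and the highest for Asns (581) and Odc1 (1351).

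Among the 9 stress regulators none passed the test, with 6 fitted as higher, 3 as lower and a median of 0.04. Atf4 itself was at 1466, 1439 and 1445 CPM in the libraries labelled KO and 1372, 1397 and 1417 CPM in those labelled WT. The groups were apart by 1.04-fold, and the interval of the log2 fold change ran from -0.02 to 0.13 (0.06 ± 0.04, adjusted p = 0.415). Atf5, a related factor whose translation is controlled in the same way, was at 104, 92.9 and 90.4 CPM in the libraries labelled KO and 96.4, 101 and 95.9 CPM in those labelled WT (-0.03 ± 0.06, adjusted p = 0.828); its span overlaps Nup62. Cebpb, whose product can pair with ATF4, was at 97.0, 100.4 and 106 CPM in the libraries labelled KO and 94.6, 103 and 98.5 CPM in those labelled WT (0.04 ± 0.06, adjusted p = 0.771).

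Ddit3, which encodes CHOP, the factor tied to death under lasting stress, gave the largest positive value of the group. It was at 404, 407 and 396 CPM in the libraries labelled KO and 375, 378 and 350.1 CPM in those labelled WT. Groups were apart by 1.09-fold (log2 0.13 ± 0.05, 95% interval 0.03 to 0.23, adjusted p = 0.122). The span of Ddit3 overlaps Mbd6 and the methionyl-tRNA synthetase gene. Trib3, a pseudokinase gene that CHOP and ATF4 raise and whose product restrains both, was at 371, 369 and 369.6 CPM in the libraries labelled KO and 347, 357 and 349 CPM in those labelled WT (0.08 ± 0.04, adjusted p = 0.317). Ppp1r15a, which encodes the phosphatase subunit GADD34 that reverses eIF2 phosphorylation, was at 419, 373 and 402 CPM in the libraries labelled KO and 356, 373 and 377 CPM in those labelled WT (0.11 ± 0.05, adjusted p = 0.250).

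Chac1, which encodes an enzyme that breaks down glutathione and is induced by ATF4 and CHOP, gave the value nearest to 0. It was at 122, 121 and 118 CPM in the libraries labelled KO and 121, 121 and 118 CPM in those labelled WT, with a 95% interval of the log2 fold change from -0.10 to 0.10 (adjusted p = 0.995). Sesn2, a leucine sensor that restrains mTORC1, was at 227, 218 and 230.3 CPM in the libraries labelled KO and 224, 235 and 221 CPM in those labelled WT (-0.01 ± 0.05, adjusted p = 0.921). Ddit4, whose product REDD1 also restrains mTORC1, was at 138, 134 and 129 CPM in the libraries labelled KO and 174, 140.4 and 144 CPM in those labelled WT. All KO libraries lay below all WT libraries, and the value did not pass (-0.19 ± 0.08, 95% interval -0.36 to -0.03, adjusted p = 0.169). WT replicate 1 was the highest, and without it the value was -0.09 (adjusted p = 0.160). Summed, the 9 regulators held 3346, 3254 and 3287 CPM in the libraries labelled KO and 3159.8, 3205 and 3171 CPM in those labelled WT, a ratio of 1.04.

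Cytosolic tRNA synthetases load amino acids onto tRNA, and several are ATF4 targets. Of 20, 1 was called higher (5%, against 3.92% of all tested genes) and none lower. Of the 20, 18 were fitted as higher and 2 as lower, the median log2 fold change was 0.03, and all 20 intervals lay within 1.25-fold. The called gene was Lars (ENSMUSG00000024493.10), for leucine, at 417, 423 and 417 CPM in the libraries labelled KO and 345, 371 and 377 CPM in those labelled WT. The groups were clearly apart (0.20 ± 0.05, 95% interval 0.10 to 0.30, adjusted p = 0.0264), but the call was lost in 5 of 14 other fits, with an adjusted p of up to 0.161. In the fit without WT replicate 1, 5 of the 20 were called higher, Lars among them, and none lower. That fit called 10.6% of all tested genes higher. Summed, the 20 genes held 9131, 9013 and 8966 CPM in the libraries labelled KO and 8598, 8810 and 8728 CPM in those labelled WT, without overlap. The promoter core described above occurs in 5 of the 12 synthetase genes with a window (41.7%). The 17 mitochondrial synthetases gave no call in either direction and a median of 0.01, and none of the 14 with a window holds the core. The most highly counted of these were Lars2, Iars2 and Tars2, with log2 fold changes of 0.02, 0.02 and -0.06.

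The eIF2 kinases, eIF2 and eIF2B, which act upstream of ATF4, gave no call among 15 genes, with a median of 0.09. Of the 15, 12 were fitted as higher and 3 as lower. Eif2s2, which encodes the beta subunit of eIF2, was at 400.0, 394 and 377 CPM in the libraries labelled KO and 332, 371 and 397 CPM in those labelled WT, with overlap (0.09 ± 0.06, adjusted p = 0.442). Eif2s3x, for the gamma subunit, was at 308, 309 and 309 CPM in the libraries labelled KO and 261, 286 and 288 CPM in those labelled WT (0.15 ± 0.05, adjusted p = 0.104). Gcn1l1, for the activator of the amino acid sensing kinase GCN2, was at 261, 248 and 257 CPM in the libraries labelled KO and 279.9, 292 and 260.3 CPM in those labelled WT (-0.12 ± 0.05, adjusted p = 0.219).

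Among 19 tested genes of a list of further ATF4 targets, 4 were called higher (21.1%) and none lower, with a median of 0.06. Over all tested genes 3.92% were called higher and 2.47% lower. This list, like the others, was chosen with earlier results of these data known, so the comparison is a description only. Avil, which encodes the actin-binding protein advillin, gave by far the largest value, at 14.98, 14.8 and 13.0 CPM in the libraries labelled KO and 3.90, 4.20 and 3.27 CPM in those labelled WT (3.77-fold, log2 1.91 ± 0.13, adjusted p = 1.29e-05). Sqstm1, the autophagy receptor p62, was at 1346, 1264 and 1264 CPM in the libraries labelled KO and 974, 911 and 915 CPM in those labelled WT (0.47 ± 0.04, adjusted p = 0.000103). Both rises passed in all 14 other fits. Nupr1, a stress-induced nuclear protein gene (0.32 ± 0.07, adjusted p = 0.0242), and Gpt2, the mitochondrial alanine aminotransferase (0.19 ± 0.05, adjusted p = 0.0346), rose less and lost the call in 4 and 6 of 14 other fits. Sqstm1 is also a target of the oxidative stress factor NRF2, and which factor acts was not measured.

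Of 15 further amino acid carriers tested, 3 were called lower (20%, against 2.47% of all tested genes) and none higher, with a median of 0.00. Slc16a10, a carrier of aromatic amino acids, was at 36.3, 35.9 and 36.0 CPM in the libraries labelled KO and 46.5, 44.4 and 42.2 CPM in those labelled WT (-0.30 ± 0.07, adjusted p = 0.0207). Slc25a22, the mitochondrial glutamate carrier, gave -0.31 ± 0.07 (adjusted p = 0.0264), and Slc38a7, a lysosomal glutamine carrier, -0.24 ± 0.06 (adjusted p = 0.0350). In all 3 the groups were apart, and each call was lost in 4 or 5 of 14 other fits.

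Folate, methionine and purine genes beyond the 34 moved in both directions, 4 higher and 2 lower of 24 tested, with a median of 0.01. These are 16.7% and 8.33%, against 3.92% and 2.47% of all tested genes. Tyms, thymidylate synthase, was at 73.5, 70.6 and 64.2 CPM in the libraries labelled KO and 50.9, 49.4 and 45.1 CPM in those labelled WT (0.52 ± 0.07, adjusted p = 0.00154). Tyms is a gene of S phase. Ahcy, which clears S-adenosylhomocysteine after methylation, was at 263, 259 and 253 CPM in the libraries labelled KO and 212, 192 and 174 CPM in those labelled WT (0.42 ± 0.07, adjusted p = 0.00317). Slc19a1, the reduced folate carrier, fell to 99.2, 100.2 and 105 CPM in the libraries labelled KO, against 118, 132 and 138 CPM in those labelled WT (-0.35 ± 0.06, adjusted p = 0.00761), a call lost in 3 of 14 other fits. Other called genes, named after their values were seen, included Aldh1l2, the mitochondrial enzyme that oxidises formyl-folate (0.25 ± 0.06, adjusted p = 0.0219), and Mtrr, which reactivates methionine synthase (-0.29 ± 0.07, adjusted p = 0.0253).

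Of 12 polyamine and glutamine genes, Oat, the ornithine aminotransferase, was called higher (8.33%, against 3.92% of all tested genes) and none lower, with a median of 0.02. It was at 185, 183 and 191 CPM in the libraries labelled KO and 164, 168 and 164 CPM in those labelled WT (0.18 ± 0.05, adjusted p = 0.0454), and the call was lost in 6 of 14 other fits. A list of 24 DNA replication genes gave 18 calls (75%), all higher, and a median of 0.38. Over all tested genes 3.92% were called higher. Sums over the 24 genes were 2187, 2144 and 2155 CPM in the libraries labelled KO and 1676, 1712 and 1686 CPM in those labelled WT. The amino acid and serine genes measured in the same libraries had medians of -0.06 to 0.06. Cell cycling itself was not measured, and its part in these values, Tyms among them, was not tested.

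**Figure D4:**
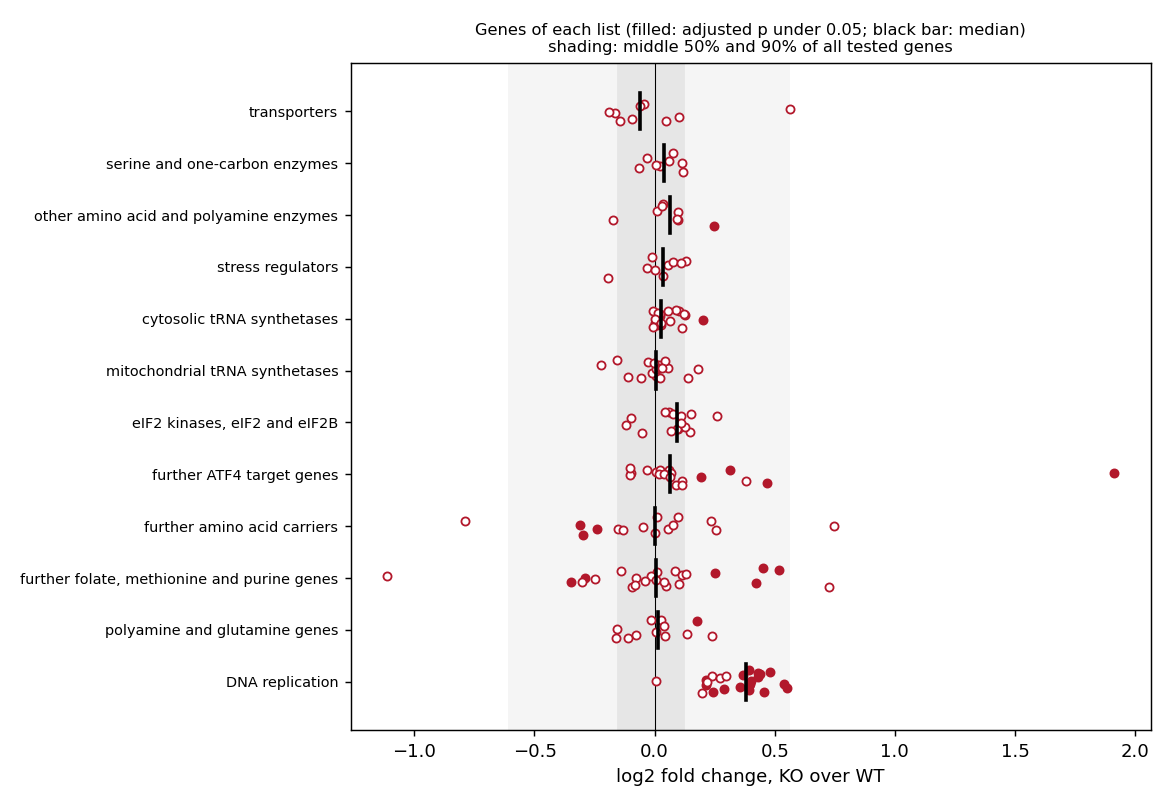
Log2 fold change, KO over WT (horizontal axis), of each tested gene of the 4 groups of members and 8 further lists, with filled points for an adjusted p under 0.05, a black bar for the median of each list, and shading for the middle 50% (-0.15 to 0.12) and 90% (-0.60 to 0.56) of all tested genes. The medians of all lists lie within the inner shading except DNA replication, at 0.38.

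The number of the 34 genes that passed depended on WT replicate 1. In the fit without it, 13 of 34 genes were called (38.2%), 8 higher and 5 lower, while 19.7% of 15039 tested genes were called, 10.6% higher and 9.12% lower. The share of the 34 genes is above that background, and no test was made of it. The background holds genes of any level, while all 34 genes lie above 20 CPM, so the shares are not matched for level. With all libraries, 6.39% of all tested genes were called, and 8.24% of those of at least 20 CPM. The genes called higher were Slc7a11, Phgdh, Psph, Asns, Cth, Got2, Odc1 and Ddit3, and those called lower were the carriers Slc7a6, Slc1a4, Slc1a5, Slc38a1 and Slc38a2. The sizes stayed small, with Phgdh at 0.13 (adjusted p = 0.00932), Asns at 0.11 (0.0262), Got2 at 0.13 (0.0183) and Ddit3 at 0.15 (0.00776). The carriers other than Slc1a5 gave -0.22 for Slc1a4 (0.000442), -0.20 for Slc7a6 (0.00194), -0.12 for Slc38a1 (0.0262) and -0.13 for Slc38a2 (0.0153). Atf4, Trib3 and Chac1 did not pass in that fit either (adjusted p = 0.397, 0.211 and 0.951). Without any KO library or WT replicate 2, none of the 34 genes was called, in fits that called 1.94% to 2.42% of tested genes.

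Relative to the mean of the other WT libraries, WT replicate 1 was lower by 0.73 in log2 CPM for Slc7a11, 0.37 for Shmt1, 0.23 for Slc38a2 and 0.18 for Cth, and higher by 0.48 for Odc1 and 0.29 for Ddit4. It was the lowest WT library for 20 of 34 genes and the highest for 7. It also had the highest Il17a, at 104 CPM, and its part in these values beyond the fits given was not tested. Across the 34 genes the median coefficient of variation was 2.86% among the libraries labelled KO and 3.71% among those labelled WT, and it was larger among WT libraries for 27 genes. The same held for 5439 of the 7163 genes of at least 20 CPM, whose medians were 3.28% in the libraries labelled KO and 6.11% in those labelled WT. For 23 genes the range of the WT libraries exceeded the difference between the group means.

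**Figure D5:**
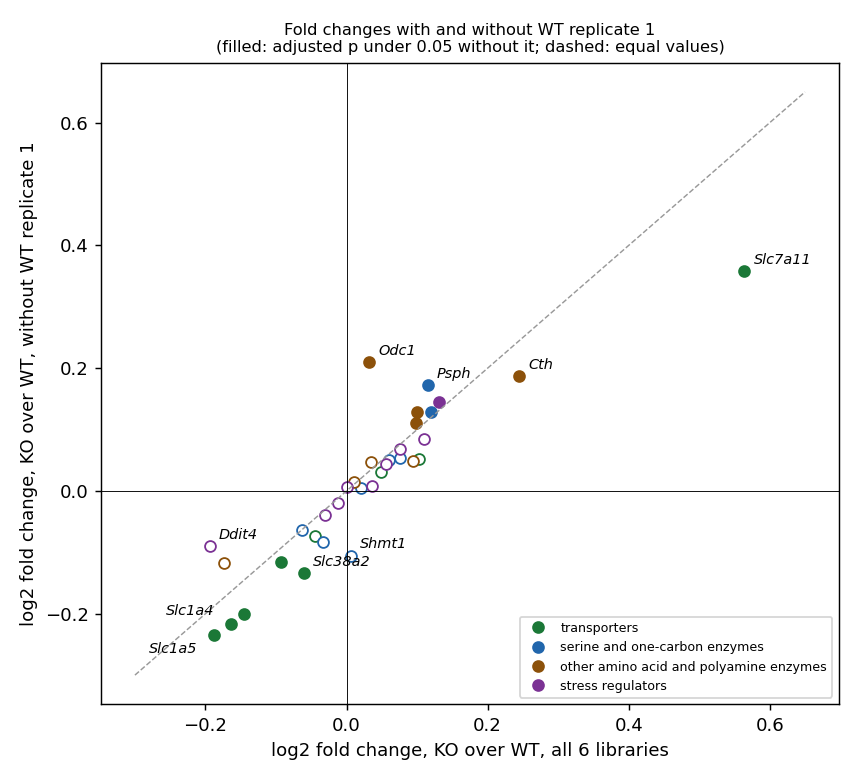
Log2 fold change, KO over WT, of the 34 genes with all 6 libraries (horizontal axis) and without WT replicate 1 (vertical axis), coloured by group and filled where the adjusted p was under 0.05 without it; the dashed line marks equal values. Slc7a11 moves to 0.36 without that library, against 0.56 with it, and Odc1 to 0.21, against 0.03.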

How the data were processed

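RNA sequencing libraries of 3 KO and 3 WT cultures were analysed; the other 7 of 13 samples of the series were left out. TRIzol and a TruSeq kit were used, per the labels' protocols. The authors deposited raw counts per gene; per the file headers, featureCounts 2.0.1 summed exons of GENCODE vM33 with no strand set. The column of WT replicate 2 is entered as other in the record of units and holds deposited counts like the rest. Aligner version and build: not given in the sources used here. Reads of overlapping neighbours cannot be told apart without strand. Even numbers made up 65.6% to 67.7% of counts from 1 to 20 but 48.8% to 50.9% from 1000 upward, so counts overstate the number of fragments. Symbols were found for 51948 of 56941 IDs (91.2%), and rows without one, which name a gene ID, held 0.181% to 0.204% of counts and stayed in the tests.

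Groups came from the sample titles. Counts were tested with edgeR 4.0.16 in R 4.3.3 (default filter, TMM, robust quasi-likelihood fit, no replicate block), with Benjamini-Hochberg adjustment over 14681 genes and calls made at 0.05 (biological coefficient of variation 9.28%). Alternatives used other scalings and filters, DESeq2 1.42.0, limma 3.58.1 voom with and without library weights, a replicate block, and each library left out. An exact permutation test of 3 against 3 libraries cannot go below p = 0.1 and was not used. Each of the 6 libraries differed from every other beyond sampling noise and was kept. On simulated counts (14399 genes) the same test recovered 12 of 50 genes at a 1.25-fold change, 30 of 50 at 1.5-fold, 35 of 50 at 2-fold and 48 of 50 at 4-fold, and 9 of 134 calls were false (6.72%). The changed genes were drawn from tested genes of any level, with the same spread in both groups.

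The members and all lists were chosen with earlier results of these data known. All 34 members are named; of each further list the 4 called genes with the largest change are named, or, where none was called, the 3 of highest mean CPM. Marker lists and DNA replication are given by sums, with Cd4, Il17a and Il17f named. Some genes that these rules pick are not reported here. Cd4 was at 217, 235 and 224 CPM in the libraries labelled KO and 342, 269 and 259 CPM in those labelled WT. Il17f was at 5.33, 6.45 and 5.70 CPM in the libraries labelled KO and 64.9, 33.5 and 25.8 CPM in those labelled WT.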

Additional observations from a re-analysis of the deposited data

How the results depend on the processing

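Of 812 combinations of 58 named genes with 14 other fits, 697 kept direction and side of the threshold, 54 lost the call, 40 gained it and 21 turned direction, and 13 of the 34 members kept both in every fit. Members called higher numbered 1, or 7 with library weights in limma-voom, and 0 to 8 with single libraries left out (0 without any KO library or WT replicate 2, 8 without WT replicate 1). Members called lower numbered 0, or 1 with upper-quartile factors, 2 with no filter (Slc1a5 and Ddit4), 1 with the stricter filter, 1 in DESeq2, 3 with library weights, and 0 to 5 with single libraries left out. Over all genes, 576 were higher, or 1527 with library weights and 225 to 1589 with single libraries left out, and 362 lower, or 746 with no filter, 1335 with library weights, 231 with the replicate block and 70 to 1372 with single libraries left out. No cytosolic synthetase was called lower in any fit.

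Replicate numbers did not pair the samples: residuals of same-numbered KO and WT libraries correlated at -0.040, -0.028 and 0.001. The replicate block called 440 genes higher and 231 lower, among the members Slc7a11 alone (0.60, adjusted p = 0.0422).

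None of the 21 values that turned direction passed the test. With library weights the log2 fold changes were -0.0023 for Psat1, -0.0638 for Shmt1, -0.0055 for Chac1 and -4e-04 for Cebpb, and Chac1 was at -0.0027 with no filter and -0.0039 with the stricter one. With single libraries left out, values ran from -0.1054 to 0.0794 for Shmt1, -0.0034 to 0.0203 for Aldh18a1, -0.0799 to 0.2101 for Odc1, -0.0953 to 0.0056 for Atf5, -0.0119 to 0.0121 for Chac1, -6e-04 to 0.0659 for Cebpb, -0.0317 to 0.0159 for Sesn2, -0.0194 to 0.0438 for Lars2, -0.0032 to 0.0376 for Iars2 and -0.1192 to 0.0109 for Tars2. For these changes the cause was not tested. Leaving out a library also leaves fewer samples.

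At this depth a member's 95% interval reached 0.11 in log2 to either side at the median. Differences larger than that also failed the test. In the simulated comparison 12 of 50 genes changed 1.25-fold were recovered. Those genes were of any level, with the same spread in both groups, so that share cannot be taken as the share for the members. RNA counts do not show ATF4 protein, translation or amino acid flux.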
